A study of Mus musculus with 12 samples.

Results

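The core circadian clock was followed in visceral adipose tissue of mice through 10 genes, Arntl, Clock, Per1, Per2, Per3, Cry1, Cry2, Nr1d1, Nr1d2 and Dbp, chosen by name among 20358 genes measured. Each gene was read from the probe sets that the platform annotation assigns to that gene and to no other, which gave 166 of 212138 such probe sets. A further 5 probe sets that also name a second gene were left out. A gene value is the median of the log2 intensities of its probe sets on an array. The mice were male C57Bl/6J, 20 weeks old and fasted overnight, and the visceral fat combined epididymal pads with fat around the reproductive organs and the omentum and mesentery. All 4 diets held 20% (w/w) partially hydrogenated vegetable shortening with 8.68% (w/w) trans fatty acids. TFA was this diet with plain water and served as the control, MSG+TFA added monosodium glutamate at 0.75 g/L of drinking water, ASP+TFA added aspartame at 0.25 g/L, and ASP+MSG+TFA added both. Dams began their diet when 6 weeks old, which was 3 weeks ahead of mating, and offspring were weaned onto it at 4 weeks, so exposure ran from conception and the control mice carried the trans fat throughout. There were 3 arrays per diet and 12 in all, each hybridised with RNA pooled from several mice, so the p-values rest on variation among pools and not among animals. The hour of tissue collection is not given in the sources used here, and an array therefore shows the clock at 1 unknown time.

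The clock is a feedback loop of transcription. The proteins of Arntl (also called Bmal1) and Clock pair up and bind E-box sequences in the promoters of the Per, Cry, Nr1d1, Nr1d2 and Dbp genes, PER and CRY proteins then block that pair, and the REV-ERB receptors encoded by Nr1d1 and Nr1d2 repress Arntl. In mouse fat, as in liver, transcripts of the REV-ERB genes, Dbp and Per3 peak in the light phase and early evening, opposite to Arntl, and feeding and fasting can shift the timing.

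Stretches of the promoters that carry these control sequences are shown for the genes that are set against each other below. They come from RefSeq windows of 250 bases before to 50 bases after a start site (build GRCm38.p6), which were at hand for 9 of the 10 genes in 13 windows. Capitals mark an E-box (CACGTG), its variant CACGTT, which reads AACGTG where it lies on the opposite strand, a D-box, spelled either TTATGTAA or with the middle letters changed as TTACGTAA, or the core of a ROR element (TAGGTCA), each searched on both strands, and no 2 matches overlapped. Positions count from the first transcribed base as +1.
Per1, chr11:69098759-69098818, plus strand, E-box at -166: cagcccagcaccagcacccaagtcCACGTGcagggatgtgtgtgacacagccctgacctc
Cry1, chr10:85185095-85185154, minus strand, variant at -79 and E-box at -60: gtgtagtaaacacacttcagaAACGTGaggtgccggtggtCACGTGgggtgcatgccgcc
Cry2, chr2:92434200-92434259, minus strand, variant at -166: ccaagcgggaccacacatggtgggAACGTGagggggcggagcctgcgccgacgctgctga
Nr1d1, chr11:98775378-98775437, minus strand, variant at -28: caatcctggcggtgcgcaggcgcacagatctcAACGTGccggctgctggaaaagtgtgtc
Per3, chr4:151044798-151044887, minus strand, D-boxes at -205 and -158: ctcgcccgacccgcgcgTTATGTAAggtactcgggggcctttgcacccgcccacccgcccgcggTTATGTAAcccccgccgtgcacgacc
Arntl, chr7:113207529-113207558, plus strand, ROR core at 31 of its second start: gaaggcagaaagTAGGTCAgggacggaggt
Of all 32851 windows, 7.15% hold the E-box, 4.68% its variant, 1.06% a D-box and 2.61% the ROR core. The windows of Clock, Nr1d2 and Dbp held none of these letters, which says nothing of sequence outside them. A match here is a match of letters only.

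The tissue label was borne out by the adipocyte markers, 8 of 8 measured, whose mean log2 value lay between 12.6 and 12.9 on every array. Transcripts of neighbouring organs were also present on some arrays. The mean of the 6 epididymis markers ran from 5.51 to 12.3, that of the 3 measured seminal vesicle genes from 5.27 to 13.9, and that of the 4 spermatid genes from 5.99 to 10.5. The 4 measured pancreas genes reached 11.7 on TFA replicate 2. The 4 liver genes reached 10.4 on ASP+MSG+TFA replicate 1 and 9.38 on MSG+TFA replicate 3, although Serpina1a among them stayed at 4.56 to 5.55 throughout. The part of these tissues in the clock gene values was not tested. On 4 arrays, namely replicates 1 and 2 of both TFA and MSG+TFA, the 1169 olfactory and vomeronasal receptor genes had a median of 6.40 to 6.76, against 5.44 to 5.66 on the other 8. These receptors serve here as a measure of dim signal, and a gene is called dim below 6.61, the 90th percentile of their mean levels. None of the aspartame arrays was among the 4, which leaves TFA and MSG+TFA with 1 array each outside that set, so the raised signal is partly confounded with diet. Of the clock genes, 3 of 10 (Arntl, Per1 and Cry1) were lower on all 4 raised arrays than on all other arrays, against 11.1% of all genes, and 0 were higher, against 22%.

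The values of the 10 clock genes overlapped between most diets, and no gene of the 20358, clock or other, passed an adjusted p of 0.05 with at least a 1.4-fold difference in any comparison (limma, Benjamini-Hochberg). The smallest adjusted p over all genes was 1 for MSG+TFA against TFA, 0.186 for ASP+TFA and 0.122 for ASP+MSG+TFA, and the methods' analysis of variance on the same values called 0 genes after adjustment too. At an unadjusted p below 0.05 with at least a 1.4-fold difference, that analysis gave 118, 2597 and 3550 genes in these comparisons, none of them a clock gene, and 1605 genes between ASP+MSG+TFA and MSG+TFA, with Cry1 among them. Before adjustment, limma gave p below 0.05 to 438 genes (2.15%) in the MSG+TFA comparison and to 0 of the 10 clock genes. In the ASP+TFA comparison it did so for 4602 genes (22.6%) and for 1 clock gene, Per1, and in the ASP+MSG+TFA comparison for 5850 genes (28.7%) and 0 clock genes. Counted in either direction, the share of clock genes was therefore at or below that of all genes, though 10 genes make such a share coarse. Per1 was higher in ASP+TFA, as were 6.94% of all genes at that level. The F test over all 4 diets gave 18.1% of all genes and 0 clock genes an unadjusted p below 0.05. Because the RNA came from whole tissue, fewer cells of a type and less RNA per cell cannot be told apart.

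**Figure D1:**
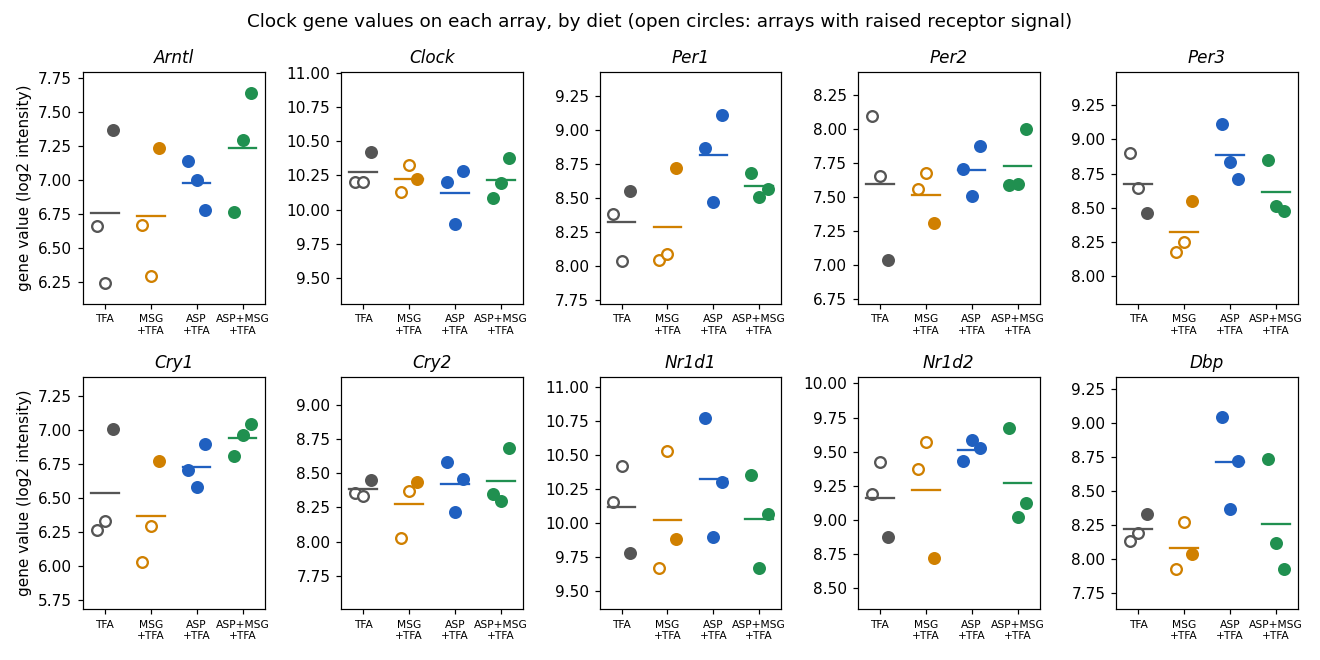
Gene value (log2 intensity) of each clock gene on the 12 arrays, by diet. Each point is 1 array, lines are diet means of 3 arrays, open circles are the 4 arrays with raised receptor signal, and all panels span the same number of log2 units. Open circles are the lowest points for Arntl, Per1 and Cry1, and ASP+TFA lies above TFA without overlap for Nr1d2 and Dbp.

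By direction, 9 of the 10 clock genes were on average higher in ASP+TFA than in TFA, against 46% of all genes, with a median log2 difference of 0.21 (-0.04 over all genes). Clock was the exception. In MSG+TFA, 9 of 10 were on average lower than in TFA, against 53.4% of all genes, with a median of -0.09 (-0.02 over all genes), and Nr1d2 was the exception. Same-numbered arrays of these 2 diets deviated together, and within such pairs 1 of 10, Cry1, was lower in MSG+TFA in all 3 (by 0.24, 0.038 and 0.23 log2 units), against 16.3% of all genes, and 0 of 10 were higher in all 3, against 12.9%. When TFA and MSG+TFA alone were fitted with a replicate block, 0 genes passed, 1185 had an unadjusted p below 0.05 and the smallest adjusted p of a clock gene was 0.781 (Per3). The raised arrays have the same numbers in both diets, so pairing and raised signal are partly confounded. Among the raised arrays, the mean of the epididymis markers was 11.5 (TFA) and 12.1 (MSG+TFA) on replicate 1. On replicate 2 it was 6.23 and 6.28. The part of either in the clock gene differences was not tested. In ASP+MSG+TFA, 7 of 10 were higher, against 46% of all genes, with a median of 0.08. Against MSG+TFA, 9 of 10 were higher in ASP+MSG+TFA (48.6% of all genes), and against ASP+TFA 5 of 10 were lower (53.4%), with 0 clock genes at an unadjusted p below 0.05 there (1.58%). Counted by arrays that do not overlap, 0 of 10 differed from TFA in MSG+TFA (background 2.06% higher, 2.53% lower), 0 in ASP+MSG+TFA (13.7% and 17.9%), and in ASP+TFA 2 were higher (7.17%) and 0 lower (11.7%). Between ASP+MSG+TFA and MSG+TFA 1 was higher (7.66%) and 0 lower (16.1%), and between ASP+MSG+TFA and ASP+TFA 0 stood apart (3.31% and 5.46%). The comparisons with TFA share the TFA arrays, so they are not independent of each other. The clock genes also share arrays and regulate one another, and their counts are given as a description.

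**Figure D2:**
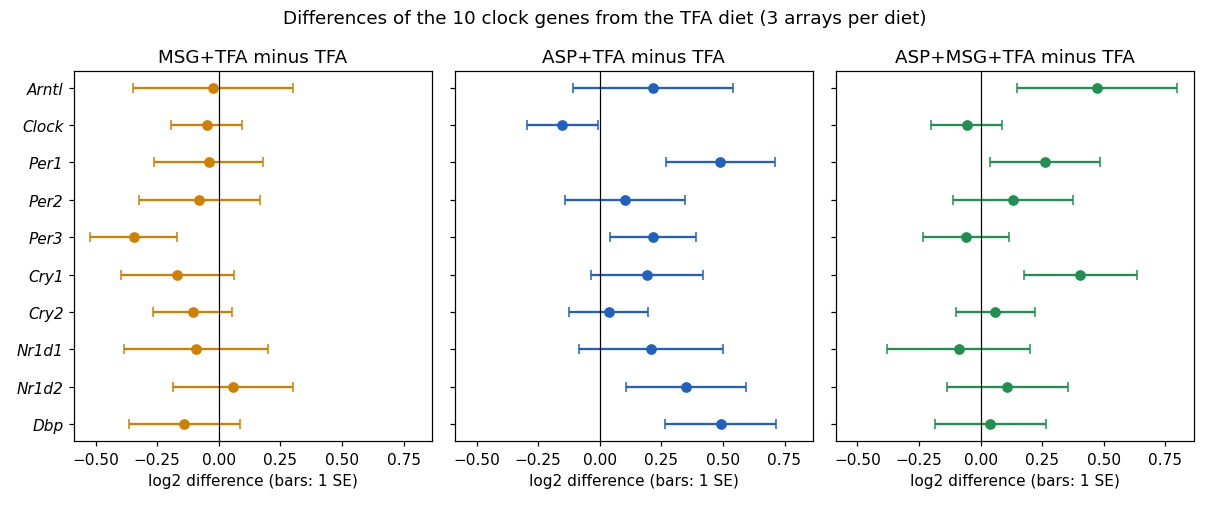
Difference of each clock gene from TFA (log2, additive diet minus TFA) in the 3 additive diets, with bars of 1 standard error from limma. Per1 and Dbp in ASP+TFA lie farthest from 0 in relation to their bars, and none passed the adjusted threshold.

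Of the activators, Arntl had the widest range of the 10 genes, 1.39 log2 units. It read 6.66, 6.25 and 7.37 on the TFA arrays, 6.67, 6.29 and 7.23 on MSG+TFA, 7.14, 7.00 and 6.78 on ASP+TFA, and 6.76, 7.30 and 7.64 on ASP+MSG+TFA. The diets overlapped, the 2 lowest arrays being TFA replicate 2 and MSG+TFA replicate 2. Its mean was 0.47 ± 0.32 (SE) higher in ASP+MSG+TFA than in TFA (1.39-fold, adjusted p = 0.337, limma), and 0.22 to 0.78 with 1 array left out at a time. Above MSG+TFA it was 0.50 ± 0.32 (adjusted p = 0.430). Arntl lay near the dim level: 10 of 12 arrays and 14 of its 22 probe sets were above the dim level. Across the arrays with raised receptor signal it stayed between 6.25 and 6.67, below the other 8 (6.76 to 7.64). With those 4 arrays as a term in the fit, the difference between ASP+MSG+TFA and TFA was -0.082 ± 0.27 and that from MSG+TFA -0.056 ± 0.27, and the part of the raised signal in it was not tested further.

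Clock, the partner of Arntl, varied least, over 0.53 log2 units, and it is known to cycle little in mouse tissues. It read 10.20, 10.20 and 10.42 on TFA, 10.13, 10.33 and 10.23 on MSG+TFA, 10.20, 9.89 and 10.28 on ASP+TFA, and 10.08, 10.20 and 10.38 on ASP+MSG+TFA. The diets overlapped throughout. Its mean in ASP+TFA was -0.15 ± 0.14 relative to TFA (adjusted p = 0.515), and this sign turned (0.019) when the mean of its 25 probe sets was used in place of the median.

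Among the Period genes, which encode repressors of the activator pair, Per1 had the smallest p of the 10 clock genes in ASP+TFA against TFA. Its values were 8.38, 8.04 and 8.55 on TFA, 8.04, 8.09 and 8.72 on MSG+TFA, 8.87, 8.47 and 9.11 on ASP+TFA, and 8.68, 8.51 and 8.56 on ASP+MSG+TFA. Between ASP+TFA and TFA, 1 ASP+TFA array lay within the TFA range and the other 2 above it. The mean was 0.49 ± 0.22 higher in ASP+TFA (unadjusted p = 0.04996, adjusted p = 0.221), and 23 of 27 probe sets had the same sign. Leaving out 1 array at a time moved this difference between 0.34 and 0.66, and with the raised arrays as a term it was 0.16 ± 0.20. In ASP+MSG+TFA the mean was 0.26 ± 0.22 above TFA (adjusted p = 0.439), and -0.068 with that term. It was 0.30 ± 0.22 above MSG+TFA (adjusted p = 0.482), and -0.027 with the term, and -0.23 ± 0.22 relative to ASP+TFA (adjusted p = 1). The raised arrays lay at 8.04 to 8.38 and all others at 8.47 to 9.11.

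Per2 spread more widely in the control diet than in the others (SD 0.53 in TFA, against 0.18 to 0.23 in the additive diets). It read 8.09, 7.65 and 7.04 on TFA, 7.56, 7.68 and 7.31 on MSG+TFA, 7.70, 7.51 and 7.87 on ASP+TFA, and 7.58, 7.59 and 7.99 on ASP+MSG+TFA. The highest and the lowest of all 12 values were both TFA arrays, and no diet differed from TFA by more than its standard error. In 3 further probe sets that name Per2 together with a second gene, 1 ran from 8.35 to 9.21 on TFA and from 8.80 to 9.62 on ASP+TFA, which overlap.

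Per3 read 8.90, 8.65 and 8.46 on TFA, 8.17, 8.25 and 8.55 on MSG+TFA, 9.12, 8.83 and 8.71 on ASP+TFA, and 8.85, 8.51 and 8.47 on ASP+MSG+TFA. Its mean was lowest in MSG+TFA and highest in ASP+TFA, and each of those diets overlapped TFA. The difference was -0.35 ± 0.18 for MSG+TFA (adjusted p = 1) and 0.22 ± 0.18 for ASP+TFA (adjusted p = 0.448, with 21 of 23 probe sets higher). Neither sign held throughout: over the arrays without raised signal, 1 in each of these 2 diets, the MSG+TFA difference was 0.087, and the brightest probe set gave -0.046 for ASP+TFA. Per3 in ASP+MSG+TFA was 0.29 ± 0.18 above MSG+TFA (adjusted p = 0.406, but -0.072 in the brightest probe set) and -0.28 ± 0.18 relative to ASP+TFA (adjusted p = 1).

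Of the cryptochromes, the second family of repressors, Cry1 was near the dim level, with 7 of 14 probe sets and 7 of 12 arrays above it. Cry1 also had the lowest median pairwise r of probe sets among the 10 genes, 0.069 over the 12 arrays. It read 6.27, 6.34 and 7.00 on TFA, 6.03, 6.30 and 6.77 on MSG+TFA, 6.71, 6.58 and 6.89 on ASP+TFA, and 6.81, 6.96 and 7.05 on ASP+MSG+TFA. All 3 ASP+MSG+TFA arrays lay above all 3 MSG+TFA arrays, the only clock gene with no overlap there, against 7.66% of all genes. This difference was 0.57 ± 0.23 (1.49-fold, unadjusted p = 0.0300, adjusted p = 0.310), and 15.6% of all genes had an unadjusted p below 0.05 in that comparison. With the raised arrays as a term it was 0.13 ± 0.14. Against TFA the mean was 0.40 ± 0.23 higher in ASP+MSG+TFA (adjusted p = 0.253), and 0.27 to 0.64 with 1 array left out at a time. Without TFA replicate 3, which leaves TFA with raised arrays only, it was 0.64 with adjusted p = 0.0393, and 6042 of all genes were called then. With the raised arrays as a term it was -0.034. Its raised arrays (6.03 to 6.34) all lay below the rest (6.58 to 7.05).

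Cry2 was steadier. It read 8.36, 8.34 and 8.45 on TFA, 8.03, 8.37 and 8.43 on MSG+TFA, 8.58, 8.21 and 8.46 on ASP+TFA, and 8.35, 8.30 and 8.68 on ASP+MSG+TFA. The diets overlapped and no mean differed from TFA by more than its standard error. The largest difference, 0.17 ± 0.16 between ASP+MSG+TFA and MSG+TFA (adjusted p = 0.587), was 0.052 with the raised arrays as a term and -0.00013 with quantile-normalised gene values.

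The REV-ERB genes encode nuclear receptors that repress Arntl and bind haem. Nr1d1 read 10.16, 10.42 and 9.78 on TFA, 9.67, 10.53 and 9.88 on MSG+TFA, 10.77, 9.90 and 10.30 on ASP+TFA, and 10.35, 9.67 and 10.07 on ASP+MSG+TFA. The arrays of each diet overlapped those of every other, and no mean differed from TFA by more than its standard error. ASP+MSG+TFA was -0.30 ± 0.29 relative to ASP+TFA (adjusted p = 1). Its 8 probe sets moved together, with a median pairwise r of 0.89 over the 12 arrays.

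Nr1d2 read 9.19, 9.43 and 8.88 on TFA, 9.37, 9.57 and 8.72 on MSG+TFA, 9.43, 9.58 and 9.53 on ASP+TFA, and 9.67, 9.02 and 9.12 on ASP+MSG+TFA. All 3 ASP+TFA arrays lay above all 3 TFA arrays, by a narrow margin, and varied least (9.51 ± 0.08, SD, n = 3, against 9.16 ± 0.28 on TFA). The difference was 0.35 ± 0.24 (1.28-fold, adjusted p = 0.377), and 7 of 7 probe sets were higher. It was 0.74 with the raised arrays as a term, 0.15 in the brightest probe set, and 0.21 to 0.48 with 1 array left out at a time. The Nr1d2 value was that of the same probe set on every array, where the closest ASP+TFA and TFA arrays read 9.4315 and 9.4264. In the brightest probe set these diets overlapped (9.81 to 10.21 on TFA, 10.06 to 10.34 on ASP+TFA). Some other probe sets kept them apart.

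Dbp, a transcription factor that binds D-boxes and a direct output of the activator pair, read 8.13, 8.19 and 8.33 on TFA, 7.92, 8.27 and 8.04 on MSG+TFA, 9.04, 8.36 and 8.72 on ASP+TFA, and 8.73, 8.12 and 7.93 on ASP+MSG+TFA. The ASP+TFA arrays all lay above the TFA arrays, with a mean 0.49 ± 0.23 higher (unadjusted p = 0.0527, adjusted p = 0.224) and 7 of 7 probe sets of that sign. It was 0.45 with the raised arrays as a term and 0.15 in the brightest probe set. The Dbp value, too, was that of the same probe set on every array. In the brightest probe set these diets overlapped (11.49 to 11.74 on TFA, 11.57 to 11.89 on ASP+TFA). Some other probe sets kept them apart. Dbp and Nr1d2 were the 2 of 10 clock genes without overlap in that comparison, against 7.17% of all genes in the same direction. Dbp was -0.45 ± 0.23 in ASP+MSG+TFA relative to ASP+TFA (adjusted p = 1), with ASP+MSG+TFA replicate 1 as high as the ASP+TFA arrays and the other 2 (8.12 and 7.93) below every TFA array. Whether the effect of glutamate differed with aspartame, the interaction of the 2 additives, gave an adjusted p of 1 for each clock gene, and 0 of them had an unadjusted p below 0.05 (1.22% of all genes).

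Across the wider clock, 20 of 22 listed genes were analysed here, and 0 passed the adjusted threshold in any comparison. In ASP+TFA against TFA, 4 of the 20 had an unadjusted p below 0.05, all higher, against 6.94% of all genes higher and 22.6% in either direction. They were Cipc, a repressor that binds CLOCK (0.45 ± 0.15, adjusted p = 0.186), Csnk1e, a kinase of PER proteins (0.35 ± 0.13, 0.188), Bhlhe40, an E-box-binding repressor (0.99 ± 0.39, 0.196), and Wee1, a cell-cycle kinase under clock control (0.68 ± 0.28, 0.200). Csnk1e was the steadiest of them: it read 9.20, 9.25 and 9.55 on TFA and 9.70, 9.64 and 9.70 on ASP+TFA, with 12 of 13 probe sets higher, but it too was lower on the raised arrays (9.20 to 9.39 against 9.49 to 9.70) and its difference was 0.19 with those as a term. Cipc was then 0.24. The Cipc and Bhlhe40 differences turned to -0.0086 and -1.25 when only their brightest probe set was read, so the direction of these 2 is not settled. Wee1 kept its sign but was 0.10 in the brightest probe set, 0.47 with the raised arrays as a term and 0.37 to 0.86 with 1 array left out at a time, and Csnk1e was 0.17 in the brightest probe set.

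In ASP+MSG+TFA against TFA, 2 of the 20 had an unadjusted p below 0.05 (28.7% of all genes). They were Ciart, a repressor of the activator pair (-0.89 ± 0.32, adjusted p = 0.129), and Cipc (0.35 ± 0.15, 0.153). For Cipc only 2 of 5 probe sets were higher. Ciart read 7.18, 6.81 and 6.16 on TFA and 5.88, 5.84 and 5.76 on ASP+MSG+TFA, with no overlap, as 17.9% of all genes were lower in that way. All of its ASP+MSG+TFA values are under the dim level, it has 4 probe sets of which 1 was higher, and it was higher on the 4 raised arrays (6.80 to 7.18) than on the other 8 (5.76 to 6.64), with a difference of -0.24 once those arrays were a term. Bhlhe40 (0.82 ± 0.39, adjusted p = 0.189, but -1.17 in its brightest probe set) and Arntl2, a relative of Arntl (0.55 ± 0.26, 0.190, but -0.57 in bright probe sets), followed. In MSG+TFA against TFA 0 of the 20 reached that level, and the 4 with the smallest p were Usp2, a deubiquitinase with clock-controlled expression (-0.41 ± 0.26), Npas2, a relative of Clock (0.29 ± 0.22, but 0.030 in its brightest probe set), Arntl2 (0.31 ± 0.26, but -0.020) and Fbxl21, a ubiquitin ligase subunit for cryptochromes (-0.20 ± 0.19), each with an adjusted p of 1. Within same-numbered pairs 4 of the 20 (Npas2, Arntl2, Rora and Fbxw11) were higher in MSG+TFA in all 3 and 0 lower, against 12.9% and 16.3% of all genes. By diet means, 14 of 22 probe sets were higher in MSG+TFA for Npas2 and 14 of 17 for Fbxw11. For Arntl2 only 7 of 15 were, and for Rora 5 of 15.

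Per1 is also induced by glucocorticoids, so 6 further glucocorticoid-induced genes were read beside it. In ASP+TFA 6 of 6 were on average above TFA (46% of all genes), with a median of 0.54, and 0 passed the adjusted threshold. Klf9, a transcription factor, read 8.92, 8.72 and 9.17 on TFA and 9.51, 9.30 and 9.53 on ASP+TFA, a difference of 0.51 ± 0.20 without overlap (adjusted p = 0.197), but 0.092 in its brightest probe set. Fkbp5, a chaperone of the glucocorticoid receptor, was 0.95 ± 0.56 (adjusted p = 0.303), Sgk1, a kinase, 0.81 ± 0.45 (0.287), and Tsc22d3 0.58 ± 0.31 (0.269). Zbtb16, a transcription factor, was 0.21 ± 0.25 (0.608) and Dusp1, a phosphatase, 0.037 ± 0.28 (0.947). Apart from Klf9, the arrays of these genes overlapped between ASP+TFA and TFA. With the raised arrays as a term the differences were 0.25 for Klf9, 0.73 for Fkbp5, 0.14 for Sgk1, 0.13 for Tsc22d3, -0.062 for Zbtb16 and -0.22 for Dusp1. In ASP+MSG+TFA 6 of the 6 were also above TFA (46% of all genes), and in MSG+TFA 2 of the 6. Tsc22d3 was the only one of them above TFA without overlap in ASP+MSG+TFA, as 13.7% of all genes were. Its raised arrays (8.81 to 9.42) lay below all others (9.59 to 10.30). Whether glucocorticoid exposure had a part in the Per1 difference was not tested.

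The phase relation within each array was read as a contrast, the mean deviation of Arntl and Clock from their 12-array means minus that of Per3, Nr1d1, Nr1d2 and Dbp, in log2 units. A positive value means that the activators stood higher against their own means than the other 4 genes did against theirs. It was -0.14, -0.43 and 0.56 on the TFA arrays, 0.14, -0.32 and 0.45 on MSG+TFA, -0.40, -0.20 and -0.26 on ASP+TFA, and -0.46, 0.44 and 0.63 on ASP+MSG+TFA. The arrays of TFA, MSG+TFA and ASP+MSG+TFA thus fell on both sides of 0 within a diet, and those of ASP+TFA were all negative, although replicate 2 came to 0.02 when only bright probe sets were read. In TFA and MSG+TFA the highest value (0.56 and 0.45) was that of replicate 3, the only array of each without raised receptor signal. Arntl, which enters the contrast, was lower on all raised arrays. The part of the raised signal in the spread within these diets was not tested. The diet means were -0.0041 ± 0.50 (SD, n = 3) for TFA, 0.09 ± 0.39 for MSG+TFA, -0.29 ± 0.10 for ASP+TFA and 0.20 ± 0.58 for ASP+MSG+TFA, so the ranges of all 4 diets overlapped. No test was made on this score.

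**Figure D3:**
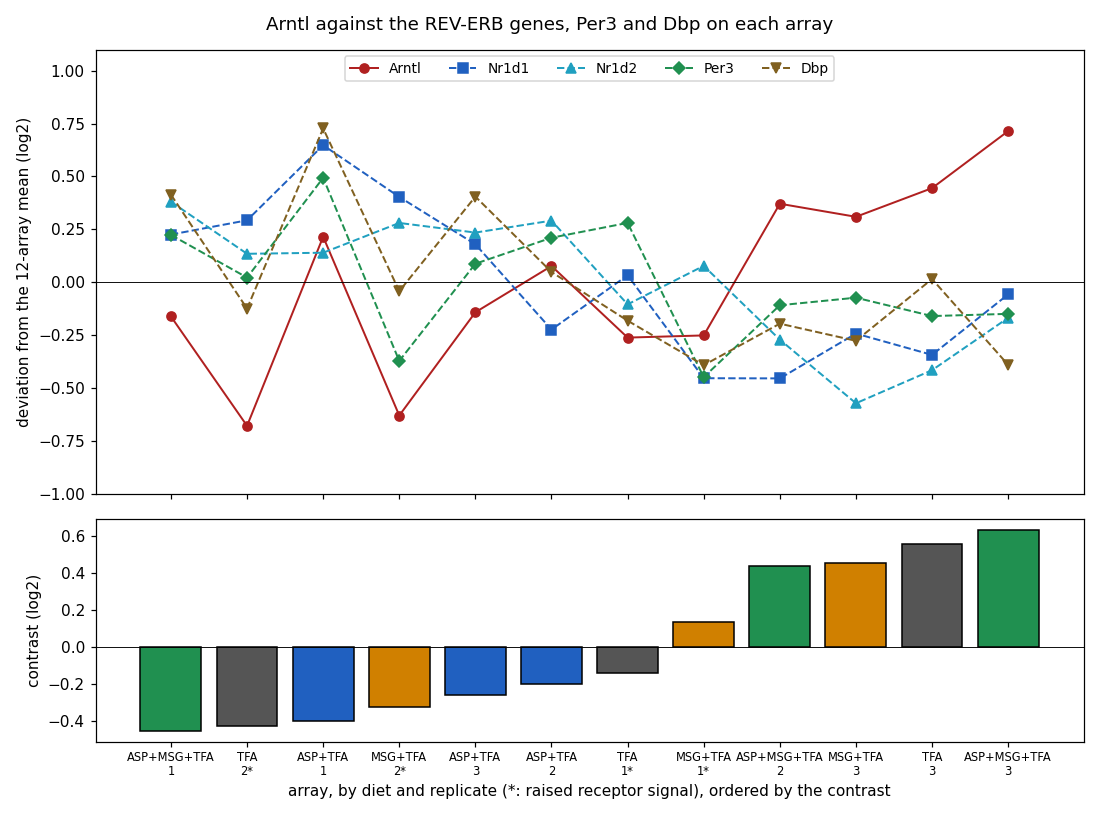
Upper panel, deviation of 5 clock genes from their 12-array means (log2) on each array. Lower panel, the contrast described in the text (log2), with 1 bar per array coloured by diet (grey TFA, orange MSG+TFA, blue ASP+TFA, green ASP+MSG+TFA) and arrays ordered by it. The 4 arrays at the right, 1 of TFA, 1 of MSG+TFA and 2 of ASP+MSG+TFA, combine high Arntl with low Nr1d1 and Nr1d2. These genes are part of the contrast that orders the arrays.

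Array by array, the 4 with the highest contrast were TFA replicate 3, MSG+TFA replicate 3 and ASP+MSG+TFA replicates 2 and 3. On each of them Arntl was above its mean, by 0.31 to 0.71, and Nr1d1 and Nr1d2 were below theirs. These genes enter the contrast that picked the arrays, so this arrangement is largely built in and is no separate result. ASP+TFA replicate 1 had Arntl 0.21 above its mean although Nr1d1, Per3 and Dbp had their highest values there. MSG+TFA replicate 1 had both sides low, with Arntl 0.25 and Nr1d1 0.45 below their means.

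Over the 12 arrays, 0 of the 45 pairs of clock genes had a correlation with an adjusted p below 0.05 (permutation test, two-sided, Benjamini-Hochberg over 45 pairs), and 8 had an unadjusted p below 0.05. Pairs with Arntl, Per1 or Cry1 are given mainly over the 8 arrays without raised signal, because the raised arrays form a separate cluster for those genes, and 4 arrays are too few for a value of their own. Per3 and Dbp had r = 0.695 and rho = 0.629 over 12 arrays (adjusted permutation p = 0.148 and 0.220), and r = 0.862 over the 8. Without the 2 arrays farthest from the median, r was 0.394, so the pooled relation rests in part on MSG+TFA replicate 1 and ASP+TFA replicate 1. Nr1d1 and Dbp had r = 0.672 and rho = 0.608 (adjusted permutation p = 0.148 and 0.220), 0.462 without the 2 farthest and 0.829 over the 8. Nr1d1 and Nr1d2, the paralogues, had r = 0.572 and rho = 0.615 (adjusted permutation p = 0.240 and 0.220), and 0.559 without the 2 farthest. Over the 8 arrays too 0 pairs passed and 8 had an unadjusted p below 0.05: Clock with Cry1 (r = 0.849) and Cry2, Per3 with Dbp, Nr1d1 (0.823), Nr1d2 (0.733) and Cry1 (-0.743), Nr1d1 with Dbp, and Arntl with Nr1d2. Clock and Cry2 had r = 0.609 and rho = 0.734 (adjusted permutation p = 0.223 and 0.206), 0.636 without the 2 farthest and 0.729 over the 8. Clock and Cry1 had r = 0.335 over the 12 arrays, 0.269 with the brightest probe set, -0.234 with quantile-normalised values and -0.150 with bright probe sets.

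Arntl ran opposite to the light-phase genes over the 8 arrays, which hold 1 TFA, 1 MSG+TFA, 3 ASP+TFA and 3 ASP+MSG+TFA arrays. With Nr1d2 it gave r = -0.724 and rho = -0.762 (exact permutation test, adjusted p = 0.265 and 0.276), and -0.801 without the 2 farthest arrays. With Dbp it gave r = -0.695 and rho = -0.762 (exact permutation test, adjusted p = 0.275 and 0.276), and -0.494 without the 2 farthest. With Per3 it gave -0.593 and with Nr1d1 -0.415, while Clock (0.569) and Cry1 (0.543) ran the same way as Arntl. Per1 and Cry1, both repressors, had r = -0.070 and rho = -0.095 there (exact permutation test, adjusted p = 0.933 and 0.922), a value whose sign changed with the array left out. None of these passed the correction, and 8 arrays limit what could. Over all 12 arrays, which include the split between raised and other arrays, r with Arntl was -0.615 for Nr1d2 and -0.431 for Nr1d1. It was -0.084 for Dbp, 0.071 for Per3, 0.232 for Clock and 0.776 for Cry1. With median gene values, opposition to Dbp and Per3 was thus seen over the 8 arrays only. Over the 12, the brightest probe set gave -0.626 for Dbp and -0.674 for Per3. Bright probe sets gave -0.485 and 0.079, and quantile-normalised values -0.240 and -0.282. Ranked from the highest r with Arntl over the 12 arrays, Nr1d2 came 15882nd and Nr1d1 13679th of 20357 genes. Many genes thus ran more strongly opposite. Over the 8, Nr1d2 came 20219th, Dbp 20161st, Per3 19813th and Nr1d1 18496th.

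**Figure D4:**
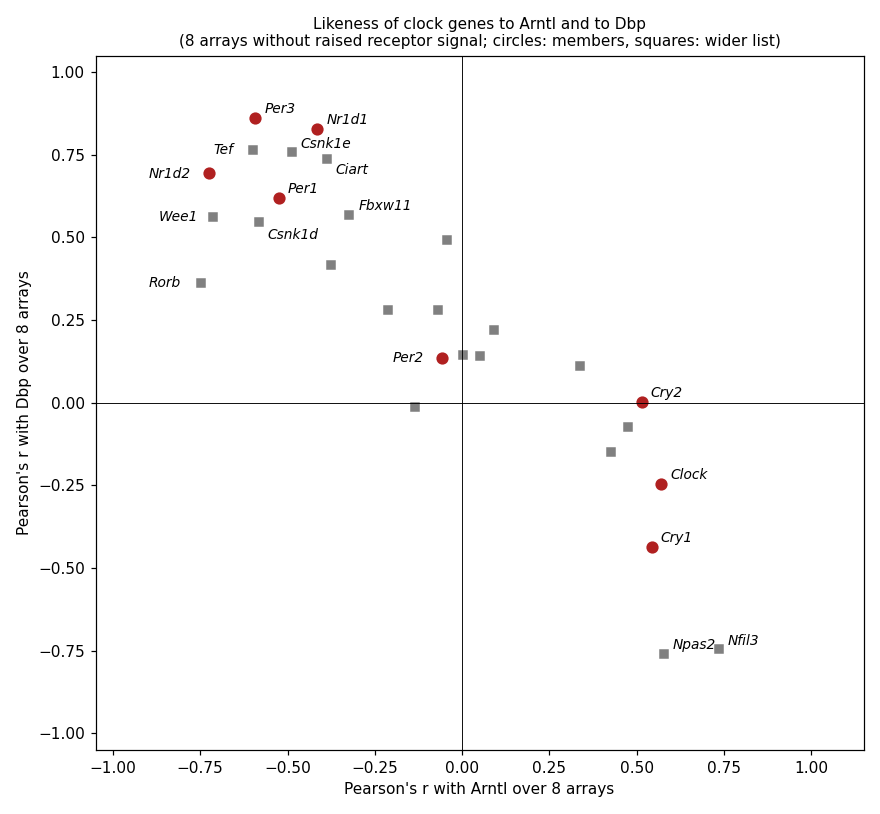
Pearson's r of each clock gene with Arntl (horizontal) and with Dbp (vertical) over the 8 arrays without raised receptor signal. Red circles are the other members, grey squares genes of the wider list, and only genes beyond 0.5 on an axis are named among the latter. Nr1d1, Nr1d2 and Per3 lie at upper left and Nfil3 and Npas2 at lower right. All points share the same arrays, and Arntl and Dbp themselves have r = -0.695 there, so the 2 axes are not independent.

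The genes most like Arntl over the 12 arrays, among 10804 genes above the dim level with an informative symbol, were Arrdc4 (r = 0.947), Hspbp1 (0.918), Cpeb4 (0.916), Nfil3 (0.916) and Zfp438 (0.914). Nfil3 is itself a clock gene, a repressor that competes with DBP at D-boxes, and its promoter window holds the ROR core at -12. It read 6.59, 6.26 and 6.98 on TFA, 6.60, 6.40 and 6.97 on MSG+TFA, 6.70, 6.72 and 6.92 on ASP+TFA, and 6.77, 6.96 and 7.32 on ASP+MSG+TFA. Its raised arrays lay at 6.26 to 6.60 and the others at 6.70 to 7.32, and over those 8 its r with Arntl was 0.735. The most unlike Arntl were Acnat1 (-0.883), Nkx2-1 (-0.879), Twist1 (-0.877), Asb6 (-0.875) and Olfr145 (-0.859), the last of them an olfactory receptor gene, whose r over the 8 arrays without raised signal was -0.918. The 12-array values include the split between raised and other arrays.

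The genes most like Dbp over the 12 arrays were Scrn3 (r = 0.852), Akap8l (0.805), Tmem131l (0.795), Scd1 (0.769), which encodes a fatty acid desaturase of fat, and Rabep2 (0.761). The most unlike were Rnls (-0.774), Cklf (-0.743), Fhl2 (-0.736), Meox1 (-0.721) and Calm2 (-0.709). Counted from the top over all genes, Per3 came 49th, Nr1d1 75th and Csnk1e 143rd in likeness to Dbp. Over the 8 arrays without raised signal some clock genes lay near either end: Per3 came 29th, Nr1d1 57th, Tef, a D-box-binding relative of Dbp, 126th, Csnk1e 143rd, Ciart 179th and Nr1d2 263rd from the top of 20357 genes, and Npas2, Nfil3 and Arntl were ranked 20222nd, 20193rd and 20052nd. The rest of the members and the wider list lay between. Per1 came 529th, Hlf 2109th, Per2 6865th, Cry2 9840th, Clock 15128th and Cry1 18138th. With 8 arrays and this many genes such ranks are a description of these arrays.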

How the data were processed

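Adipose RNA, pooled over mice, was hybridised to 12 Mouse Gene 1.0 ST arrays, 3 per diet. The deposited table holds linear intensity values for 241576 probe sets, which the authors summarised and background-adjusted with GCRMA in Partek and quantile-normalised. The value of 1 gene therefore depends on all probe sets of an array, and median intensity was 145 to 151 on every array. The spread was less alike. The interquartile range of gene values was 2.19 to 2.39 log2 units on the arrays with raised receptor signal and 2.95 to 3.12 on the others. The number of arrays limits the precision. Platform symbols were current (17626), replaced through RefSeq synonyms (2743) or kept (53). Gene values were fitted with limma 3.58.1 (R 4.3.3), 1 mean per diet, no replicate block, with adjustment over 20358 genes. The script was tested on simulated data with known changes between ASP+TFA and TFA. It called 7.46% of the genes changed 1.5-fold, 37.3% of those changed 2-fold and 90.9% of those changed 4-fold. The simulation changed 67, 67 and 66 of 20358 genes in these steps, with noise independent between genes and no raised arrays. In that setting a true change of the size seen in the clock genes would mostly go uncalled. The rates may differ in these data. Correlations used 100000 permutations, or exact permutations over 8 arrays (scipy 1.17.1). All members are named, wider-list genes by the 4 smallest p against TFA, and likeness genes by the 5 highest and 5 lowest r. The members and lists were chosen with earlier results of these data known. Member differences between 2 diets are printed where they exceed 1 SE. Same-numbered TFA and MSG+TFA arrays deviated together (r = 0.593, 0.632 and 0.661), and every other pair of diets had at least 1 number with r below 0 (range -0.549 to 0.536). Alternatives were the replicate block (also for TFA and MSG+TFA alone, added after seeing the data), other gene values, scaling and filters, the raised arrays as a term or left out, and each array left out.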

Additional observations from a re-analysis of the deposited data

How the results depend on the processing

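The count of genes called was 0 in every comparison, and the alternatives kept it there with these exceptions. With the replicate block, ASP+MSG+TFA against TFA gave 2 genes, and with the median of bright probe sets (chosen after seeing the data) 1. The brightest probe set gave 2 there, 1 in ASP+TFA against TFA and 1 in the F test. Leaving out 1 array at a time gave 0 to 5413 genes for ASP+TFA, 0 to 6042 for ASP+MSG+TFA and 0 to 3786 for the F test, and the upper values came from leaving out TFA replicate 3, the only TFA array without raised receptor signal. Without that array Cry1 in ASP+MSG+TFA was the only clock gene with an adjusted p below 0.05 (0.0393), and of the 20 wider-list genes so were Cipc (0.0133), Csnk1e (0.0200) and Fbxw11 (0.0383) in ASP+TFA, and Cipc (0.0157) and Ciart (0.0215) in ASP+MSG+TFA. The block changed no other call, also when fitted to TFA and MSG+TFA alone (0 genes, added after seeing the data), where the genes with an unadjusted p below 0.05 numbered 1185 against 438 without it. Pairs of clock genes with an adjusted p below 0.05 numbered 1 with the brightest probe set (Cry1 and Cry2), 1 with quantile-normalised gene values (Arntl and Cry1), 2 with bright probe sets (Arntl and Cry1, Nr1d2 and Dbp) and 1 for deviations from the diet means (Arntl and Nr1d2), whose permutation ignores the 4 fitted means. The r of Per1 and Cry1 over 8 arrays turned to 0.13 with quantile-normalised values and ran from -0.51 to 0.062 with 1 array left out. The mean contrast of ASP+TFA moved to -0.18 with quantile-normalised values, and on bright probe sets ASP+TFA replicate 2 was at 0.02.

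Of 36 differences followed, 19 changed sign under at least 1 alternative, and none of the 36 was past the threshold in the fit reported. Over arrays without raised signal, Per3 was 0.087 in MSG+TFA, Arntl -0.14 and Cry1 -0.065 in ASP+MSG+TFA against TFA, and Arntl -0.0014 and Per1 -0.13 against MSG+TFA. With the raised arrays as a term, Arntl was -0.082, Per1 -0.068 and Cry1 -0.034 in ASP+MSG+TFA against TFA, and Arntl -0.056 and Per1 -0.027 against MSG+TFA. The brightest probe set gave Per3 -0.046, Cipc -0.0086 and Bhlhe40 -1.25 in ASP+TFA, Cipc -0.12 and Bhlhe40 -1.17 in ASP+MSG+TFA, Per3 -0.072 in ASP+MSG+TFA against MSG+TFA and Arntl2 -0.020 in MSG+TFA. Bright probe sets gave Arntl2 -0.15 and Fbxl21 0.25 in MSG+TFA and Arntl2 -0.57 in ASP+MSG+TFA. The mean of probe sets gave Clock 0.019 in ASP+TFA, and quantile-normalised values gave Cry2 -0.00013 in ASP+MSG+TFA against MSG+TFA. In ASP+TFA, Zbtb16 was -0.062 and Dusp1 -0.22 with the raised arrays as a term, and Dusp1 -0.0092 over arrays without raised signal, -0.093 in the brightest probe set, -0.014 with the mean of probe sets, -0.055 with quantile-normalised values and -0.22 to 0.18 with 1 array left out. The causes were not tested. Of the 36, 24 moved by over 1.5 times with the brightest probe set, 19 with the mean of probe sets, 17 with quantile-normalised values, 18 with the raised arrays as a term, 27 over arrays without raised signal and 26 with at least 1 array left out. The choice to follow member differences beyond 1 SE was made after seeing the values. Of the 32 member differences within 1 SE, 27 changed sign somewhere.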

Other observations

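Of the 5 probe sets left out because they name a second gene, the 3 that Per2 shares ran from 8.10 to 9.01, from 9.38 to 10.12 and from 8.35 to 9.62 over the 12 arrays, and 2 of these ranges had their highest value on ASP+TFA replicate 3. The probe set shared by Nr1d1 and Thra, whose transcripts overlap on opposite strands, ran from 9.22 to 10.05 over the 12 arrays, highest on MSG+TFA replicate 2 and lowest on ASP+MSG+TFA replicate 2, the array on which Nr1d1 itself was lowest. The probe set shared by Nr1d2 and Gm5827 ran from 5.08 to 6.05, under the dim level on every array.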
